A study of Homo sapiens with 4 samples.

Results

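The 10 genes described here are long noncoding RNA genes that host small nucleolar RNAs (snoRNAs): GAS5, SNHG1, SNHG3, SNHG5, SNHG6, SNHG7, SNHG8, SNHG12, SNHG15 and SNHG16. They were taken from a list of names, chosen with earlier results of these data known, and matched to the deposited table by gene symbol. All 10 were found among its 18567 genes, and all 10 passed the filter on low values. RNA had been sequenced from Kasumi-1, an established human acute myeloid leukemia (AML) cell line. The control group, NC, held 2 samples with no shRNA and no treatment by the labels, although a control hairpin appears in the study's methods. The sh-ANP32B group held 2 samples with knockdown of ANP32B, a histone-binding nuclear protein, made by the methods with lentiviral hairpins and puromycin selection. Which of the study's hairpins either sample carried is not given in the labels. If the NC samples carried no hairpin, infection and selection cannot be told apart from the knockdown. No separate cultures are stated for the replicates, so the p-values measure only the spread between these samples.

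A snoRNA host gene is transcribed as a long precursor whose introns contain the snoRNAs. Splicing releases the introns, and trimming leaves the mature snoRNAs, which guide chemical modification of ribosomal and other RNA. C/D snoRNAs guide methylation of the ribose, and H/ACA snoRNAs guide conversion of uridine to pseudouridine. The joined exons of these hosts code for no long protein. Several of them, GAS5 above all, are known to begin with the run of pyrimidines that also begins ribosomal protein mRNAs. Their spliced RNAs are known targets of nonsense-mediated decay, which removes RNAs whose translation stops early. GAS5 was named for its accumulation in growth-arrested cells. RNA-seq of long RNA measures the spliced host and the balance of its synthesis and decay, not the snoRNAs.

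In RefSeq (GRCh38.p14) the 10 hosts contained 36 snoRNAs, of which 25 bore a C/D name (SNORD), 10 an H/ACA name (SNORA) and 1 neither. GAS5 held 11 and SNHG1 held 9. SNHG12 held 4 and SNHG16 held 3, while SNHG3, SNHG5 and SNHG7 held 2 each, and SNHG6, SNHG8 and SNHG15 held 1 each. Set against the canonical transcripts of GENCODE v44 (hg38), 34 of the 36 lay in introns and 2 overlapped an exon, namely SNORA103 in GAS5 and SNORA9 in SNHG15. The hosts differed in the kind of snoRNA they held. SNHG1, SNHG5, SNHG6 and SNHG16 held SNORD names and no SNORA names, GAS5 and SNHG12 held both kinds, and SNHG3, SNHG7, SNHG8 and SNHG15 held SNORA names alone.

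**Figure D1:**
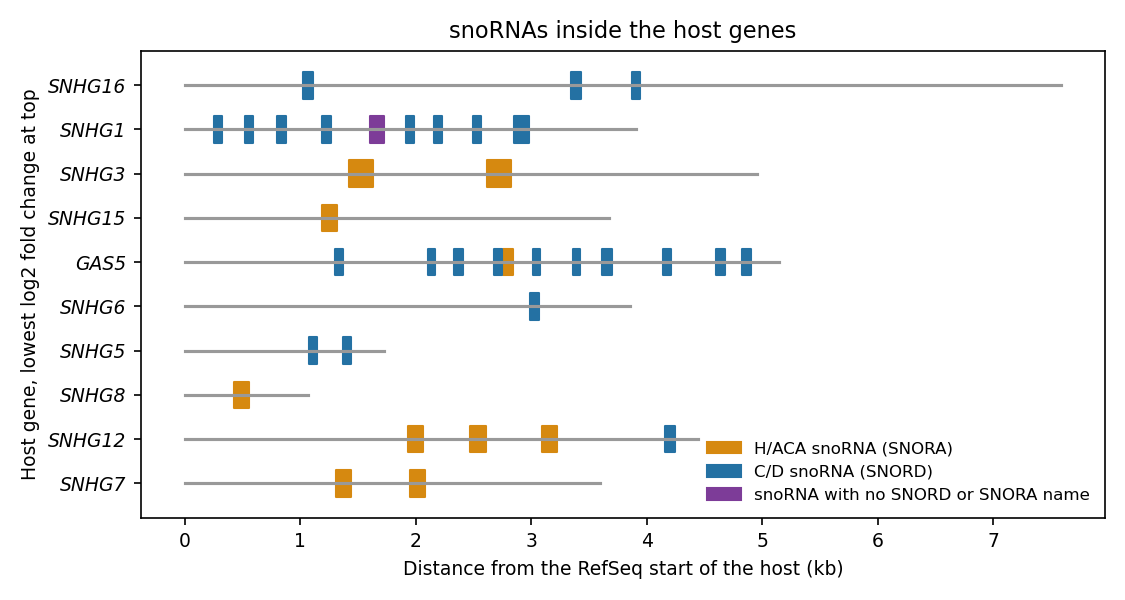
Places of the snoRNAs inside the host genes by RefSeq. Each row is a host, the grey line its span in kb from its start, and each coloured bar a snoRNA drawn to length. The hosts are ordered by log2 fold change with the lowest at the top. SNHG16, the host with the lowest fold change, holds 3 C/D snoRNAs, and SNHG1, just under it, holds 9 snoRNAs.

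The snoRNAs of SNHG16 are shown first, because SNHG16 was the host that differed most between the groups. They were read from hg38 at the RefSeq positions and run 5′ to 3′ on the host's strand. Capitals mark TGATGA, the core of the C box, where it lies within the first 20 bases, and the last CTGA, the D box, within the last 20 bases.
SNORD1A, chr17:76561633-76561706, plus strand: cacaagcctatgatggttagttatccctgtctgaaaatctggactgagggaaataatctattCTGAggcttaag
SNORD1B, chr17:76561108-76561193, plus strand: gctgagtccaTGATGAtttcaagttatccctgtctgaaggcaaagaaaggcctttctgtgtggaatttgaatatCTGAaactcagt
SNORD1C, chr17:76558790-76558869, plus strand: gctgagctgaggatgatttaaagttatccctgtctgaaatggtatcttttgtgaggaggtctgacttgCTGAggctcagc

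All 3 contained the same stretch of 17 bases, agttatccctgtctgaa. Of the 3, SNORD1B held both boxes with these exact letters, while SNORD1A and SNORD1C held the D box. Of the 24 SNORD sequences read from the hosts, 14 held both, and so did 62.6% of the 313 SNORD transcripts of GENCODE v44. SNORD87 of SNHG6 was not read. From SNHG1, the host with the next lowest value, and from GAS5, the most abundant host, 2 snoRNAs each are given with the same capitals. SNORA9 is given as the snoRNA of SNHG15. Its capitals mark the ACA found 3 bases before the 3′ end, which 9 of the 10 SNORA sequences of the hosts held and 66.4% of the 214 SNORA transcripts of GENCODE held.
SNORD25, chr11:62855565-62855631, minus strand: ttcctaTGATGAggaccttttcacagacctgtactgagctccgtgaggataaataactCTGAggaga
SNORD30, chr11:62853663-62853732, minus strand: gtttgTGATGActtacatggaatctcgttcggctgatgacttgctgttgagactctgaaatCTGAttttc
SNORD44, chr1:173865968-173866028, minus strand: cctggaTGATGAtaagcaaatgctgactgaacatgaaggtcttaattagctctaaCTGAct
SNORD76, chr1:173866635-173866715, minus strand: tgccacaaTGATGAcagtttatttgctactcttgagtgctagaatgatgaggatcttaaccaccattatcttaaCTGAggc
SNORA9, chr7:44985378-44985510, minus strand: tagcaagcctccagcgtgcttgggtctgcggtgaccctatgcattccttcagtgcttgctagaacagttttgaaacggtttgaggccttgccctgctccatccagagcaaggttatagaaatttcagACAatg

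RefSeq start sites were given for 8 of the 10 hosts, all but SNHG6 and SNHG15. The sequences printed here are from GRCh38.p14 and run from 50 bases before the start to 30 bases from it on. They are given for the 3 of these hosts whose fold changes were the lowest, SNHG16, SNHG1 and SNHG3, and for the 2 with a fold change above 0, SNHG7 and SNHG12. Capitals mark the longest run of C and T that touches the window from 10 bases before to 20 bases after the start, and TATAA where it lies 45 to 15 bases before the start.
SNHG16, chr17:76557714-76557793, plus strand: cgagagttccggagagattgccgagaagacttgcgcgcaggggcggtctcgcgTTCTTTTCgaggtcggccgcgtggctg
SNHG1, chr11:62855856-62855935, minus strand: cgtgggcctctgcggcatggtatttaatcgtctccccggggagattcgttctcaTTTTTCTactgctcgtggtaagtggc
SNHG3, chr1:28505893-28505972, plus strand: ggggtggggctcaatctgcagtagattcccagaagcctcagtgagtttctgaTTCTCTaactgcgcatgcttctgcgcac
SNHG7, chr9:136728155-136728234, minus strand: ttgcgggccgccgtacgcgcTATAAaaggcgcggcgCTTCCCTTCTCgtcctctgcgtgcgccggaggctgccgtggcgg
SNHG12, chr1:28581844-28581923, minus strand: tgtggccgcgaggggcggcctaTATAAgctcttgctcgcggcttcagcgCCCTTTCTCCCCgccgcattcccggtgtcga

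The longest pyrimidine run was 8 bases in SNHG16, 7 in SNHG1, 6 in SNHG3, 11 in SNHG7 and 12 in SNHG12. SNHG5 and SNHG8 had 6 bases each. In all 35116 RefSeq promoters the median was 5, and a run of at least 8 was found in 18.3%. GAS5 had a run of 4, but its RefSeq start lies 1056 bases from the start of its GENCODE canonical transcript. The start used for SNHG12 lies 1113 bases from that of its canonical transcript. It is a start inside the RefSeq gene, whose 5′ end on the minus strand is at 28582983. In this window TATAA was present in 4 of the 8, namely SNHG5, SNHG7, SNHG8 and SNHG12, against 4.13% of all promoters. It was searched only after these sequences had been seen, on the strand of the gene. CACGTG, the E-box bound by MYC and related factors, reads the same on both strands. In the window from 250 bases before to 50 bases after the start it was present in 1 of the 8, SNHG7, and in 7.26% of all promoters. These matches of letters describe the sequences and show no binding.

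All 10 hosts were well expressed, and their levels in NC spanned from 47.02 ± 2.23 TPM in SNHG16 to 1278 ± 18.99 TPM in GAS5 (SD, n = 2). TPM, a relative transcript abundance, is a level per transcript length, so it can be compared between genes. In NC the order was GAS5, SNHG5, SNHG6, SNHG1, SNHG7, SNHG8, SNHG12, SNHG3, SNHG15 and SNHG16. The replicates of neighbours in that order overlapped for SNHG7 and SNHG8 alone. The order of the means was the same in sh-ANP32B, where SNHG1 and SNHG7 overlapped as well. The summed level of the 10 hosts was 3096 and 3109 TPM in the first and second NC sample against 2574 and 2781 TPM in those of sh-ANP32B. GAS5 made up between 40.9% and 41.6% of this sum in each sample.

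**Figure D2:**
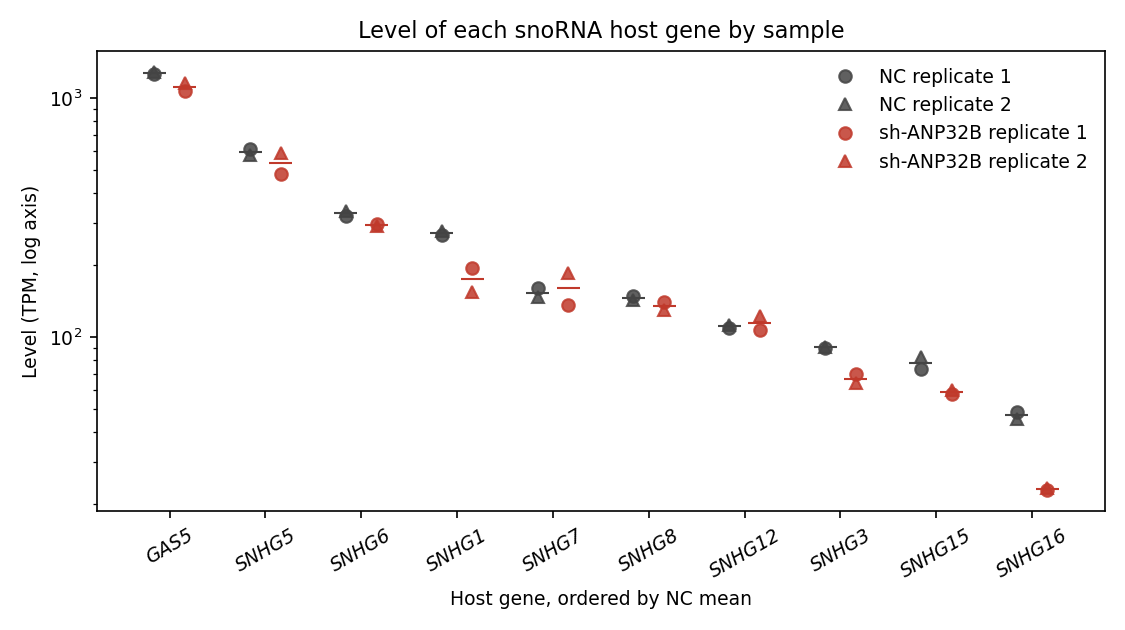
Level of each host in each of the 4 samples, in TPM on a log axis. Circles are replicate 1 and triangles replicate 2, NC is grey and sh-ANP32B red, and short lines are group means (n = 2). The red points of SNHG16, at 22.8 and 23.3 TPM, sit clear of the grey points at 48.6 and 45.4 TPM, while those of SNHG7 lie on both sides of the grey points.

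The sums of the table were between 997812 and 998314 TPM per sample, which the unit fixes, so the depth is unknown. Mitochondrial genes made up 12.9% and 13.1% of the sum in NC against 11.4% and 8.43% in sh-ANP32B. A shift in that share moves the TPM of every other gene. With mitochondrial genes left out the median log2 fold change of the 10 hosts was -0.23, beside -0.18 as reported. ANP32B itself had 383.8 and 392.01 TPM in NC against 51.8 and 41.2 TPM after knockdown. Of the 7 markers of Kasumi-1 cells, 5 were matched, and no row was matched for CD34 and MPO. SPI1 and CEBPA were over 200 TPM in every sample, CD33 lay between 58.5 and 70.1 TPM and KIT between 1.55 and 3.41 TPM. With CD34 and MPO unmatched and KIT low, these markers alone do not establish the stated line. RUNX1T1 had 17.6 and 15.6 TPM in NC against 31.2 and 26.8 TPM after knockdown (log2 fold change 0.77, adjusted p 0.0632 by limma). Of 11 markers of lymphoid, erythroid, endothelial and stromal cells 2 were matched, of which CD2 rose from 1.65 and 1.57 TPM in NC to 9.48 and 9.25 TPM after knockdown (adjusted p 0.0262 by limma). The part of CD2 in the results was not tested. GC content of the longest transcript was related to the difference of sh-ANP32B replicate 2 from replicate 1, with a Spearman rho of 0.577 across 15427 genes. For NC replicate 2 against 1 it was -0.206. These genes were not independent points.

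SNHG16 was lower in sh-ANP32B, and it was the 1 host of the 10 with an adjusted p under 0.05. No host was higher at that threshold. The count of hosts lower was 0 without the abundance trend, where 0% of all genes were called. It was 4 with GC correction, where 16.6% of all genes were called. With 1 replicate left out, the median log2 fold change ran from -0.28 to -0.17 over the hosts. Over all genes it ran from 0.07 to 0.10 in these fits. Which hosts passed depended on the replicate left out. The test was limma on log2(TPM + 1) across 16817 genes, of which it called 3.32%, with 1.18% lower and 2.14% higher. At an unadjusted p under 0.05, 4 hosts were lower, SNHG16, SNHG1, SNHG3 and SNHG15, and 0 were higher, where 8.72% of all genes were lower. The log2 fold change was below 0 in 8 of the 10 hosts and in 42.1% of all genes as reported, and in all 10 hosts with GC correction and with median-of-ratios, upper-quartile or quantile scaling, where the median of all genes was 0.003, 0.0054, 0.0274 and -0.0081. Its median was -0.18 over the hosts and 0.08 over all genes tested. In 7 hosts both sh-ANP32B samples lay below both NC samples, as they did in 21.4% of all genes, and in 0 hosts did both lie above, where 33.2% of all genes did. In bulk samples fewer cells with an RNA and less of it per cell cannot be told apart. The 7 were SNHG16, SNHG1, SNHG3, SNHG15, GAS5, SNHG6 and SNHG8.

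**Figure D3:**
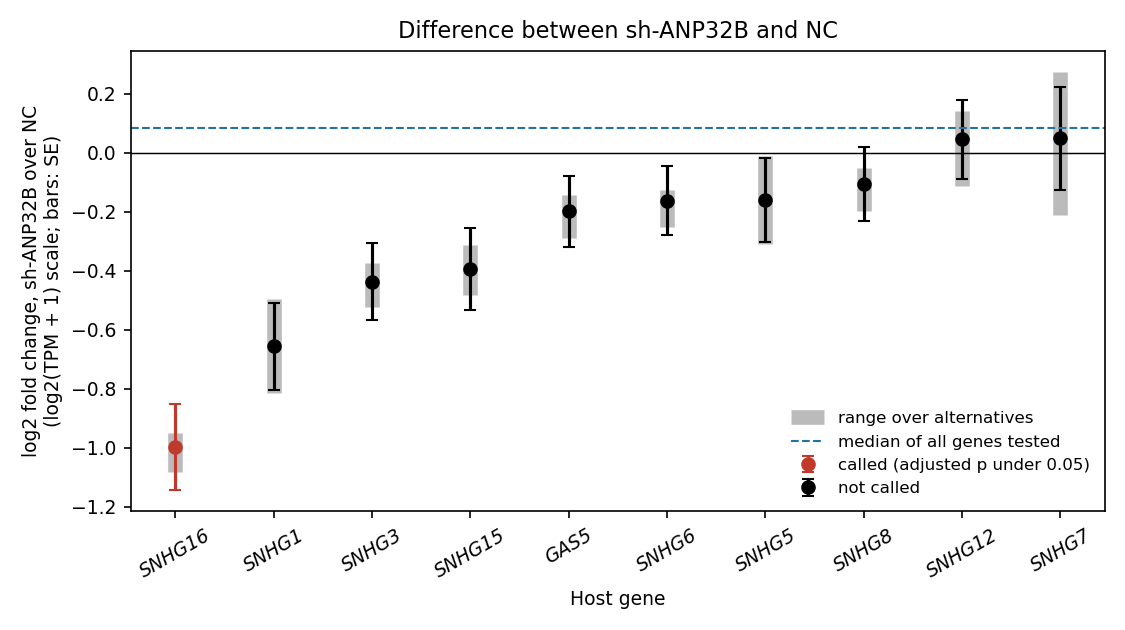
Log2 fold change of each host, sh-ANP32B over NC, on the log2(TPM + 1) scale. Points are the reported values with their SE, red where the adjusted p was under 0.05, grey bars span the alternatives and the fits that left out a replicate, and the dashed line is the median of all genes tested. SNHG16 lies at -0.998 and SNHG1 at -0.66, and the bars of SNHG7 and SNHG12 cross 0.

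SNHG16 is found in hg38 on the plus strand of chromosome 17, between 76557727 and 76670985 (ENSG00000163597). It had 48.6 and 45.4 TPM in the first and second NC sample against 22.8 and 23.3 TPM in those of sh-ANP32B. Both knockdown samples were thus far below both controls, and the replicates lay close together in each group. The sh-ANP32B mean was 48.99% of the NC mean. The log2 fold change was -0.998 (SE 0.147, adjusted p 0.0351 by limma), with a 95% interval from -1.35 to -0.65. Without the abundance trend in limma the adjusted p was 0.114, without NC replicate 1 it was 0.147 and without NC replicate 2 it was 0.0961, with log2 fold changes from -1.05 to -0.95 in these fits.

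SNHG1 (ENSG00000255717), the host of SNORD25 and SNORD30, lies on chromosome 11 from 62851978 to 62855953 on the minus strand. Its levels were 267.9 and 279.1 TPM in NC against 193.7 and 154.9 TPM after knockdown. The groups did not overlap, and the knockdown samples differed from each other more than the controls did. The means were 274 ± 7.89 TPM for NC and 174 ± 27.4 TPM after knockdown (SD, n = 2 each). The log2 fold change was -0.66 (SE 0.147, adjusted p 0.0629 by limma), and its 95% interval ran from -1.01 to -0.30. This host missed the threshold on the values as reported and passed it in 6 of 12 other fits, and the limma adjusted p over those fits ran from 0.00695 with GC correction to 0.160 without the abundance trend. Left out in turn, NC replicates 1 and 2 gave log2 fold changes of -0.69 and -0.63, and sh-ANP32B replicates 1 and 2 gave -0.82 and -0.50. Whether SNHG1 passed depended on the replicate left out. Under the criterion of the study, a log2 fold change beyond 0.5 in size at an unadjusted p under 0.05, SNHG16 and SNHG1 were lower, as were 6.55% of all genes.

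SNHG3 and SNHG15 lay at 73.7% and 75.7% of the NC mean without passing the adjusted threshold. SNHG3 (ENSG00000242125) holds SNORA73A and SNORA73B, forms of the snoRNA U17 that takes part in cleavage of the ribosomal RNA precursor. This host lies on the plus strand of chromosome 1 between 28505980 and 28510892. Its levels were 90.3 and 91.0 TPM in NC against 69.7 and 63.8 TPM after knockdown. The log2 fold change was -0.44 (SE 0.132, adjusted p 0.115 by limma). SNHG15 (ENSG00000232956), on chromosome 7 from 44983019 to 44986961 on the minus strand, had 73.3 and 82.3 TPM in NC against 57.7 and 59.97 TPM after knockdown. The log2 fold change of SNHG15 was -0.39 (SE 0.138, adjusted p 0.153 by limma). In both hosts every knockdown sample lay below every control. After GC correction the limma adjusted p was 0.0145 for SNHG3 and 0.0294 for SNHG15, in a fit that called 16.6% of all genes. The 95% interval of the log2 fold change was -0.75 to -0.12 for SNHG3 and -0.72 to -0.06 for SNHG15.

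GAS5, the most abundant of the 10, did not pass the test. The gene (ENSG00000234741) lies on chromosome 1 from 173858559 to 173868882 on the minus strand. It had 1265 and 1292 TPM in NC against 1071 and 1158 TPM after knockdown. Both knockdown samples were below both controls. The sh-ANP32B mean was 87.18% of the NC mean, with a log2 fold change of -0.20 (SE 0.121, adjusted p 0.372 by limma). The 95% interval of that fold change ran from -0.49 to 0.09. Without sh-ANP32B replicate 2 the limma adjusted p was 0.0357 at a log2 fold change of -0.26, in a fit that called 20.7% of all genes.

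SNHG5, SNHG6 and SNHG8 lay between 89.3% and 92.8% of NC in the means. SNHG5, on chromosome 6, had 613.2 and 579.4 TPM in NC against 480.5 and 592 TPM after knockdown. Its groups overlapped, as sh-ANP32B replicate 2 lay between the controls. The log2 fold change was -0.16 (SE 0.143, adjusted p 0.550 by limma), and without sh-ANP32B replicate 2 it was -0.31. SNHG6, on chromosome 8, had 321.2 and 337.7 TPM in NC against 296.7 and 291.8 TPM after knockdown. Its log2 fold change was -0.16 (SE 0.118, adjusted p 0.453 by limma). SNHG8, on chromosome 4, had 148.1 and 142.3 TPM in NC against 140.1 and 129.5 TPM after knockdown, the nearest groups among those that did not overlap. Its log2 fold change was -0.11 (SE 0.125, adjusted p 0.657 by limma). The 95% intervals of the log2 fold changes of these 3 hosts ran from -0.50 to 0.18, from -0.44 to 0.12 and from -0.41 to 0.19.

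SNHG7 and SNHG12 had fold changes above 0 that turned below 0 under other scalings, and neither exceeded the spread between replicates. SNHG7, on chromosome 9, had 159.6 and 147.4 TPM in NC against 135.7 and 185.8 TPM after knockdown. SNHG12, on chromosome 1, had 109.2 and 112.2 TPM in NC against 106.95 and 122.1 TPM after knockdown. In both hosts sh-ANP32B replicate 1 lay below both controls and replicate 2 above them. The log2 fold changes were 0.05 (SE 0.175, adjusted p 0.901 by limma) and 0.05 (SE 0.134, adjusted p 0.880 by limma). Their 95% intervals ran from -0.37 to 0.47 for SNHG7 and from -0.27 to 0.36 for SNHG12. These 2 hosts had the highest GC content of the 10, 65.9% and 56.6% in the longest transcript against 39.0% to 48.1% in the others. After GC correction their fold changes were -0.21 and -0.11, and they were also below 0 after median-of-ratios scaling, upper-quartile scaling and quantile normalization. Across the 10 hosts the difference between the sh-ANP32B replicates and GC content had a Spearman rho of 0.382, a description of points from the same libraries.

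Several hosts share their place with another gene, and the kit named in the labels does not mark strand, so reads of overlapping genes on opposite strands cannot be told apart. ZBTB37, which overlaps GAS5 on the opposite strand in GENCODE, had 4.33 and 5.40 TPM in NC against 9.12 and 6.73 TPM after knockdown (log2 fold change 0.60, adjusted p 0.206 by limma). The antisense gene GAS5-AS1 was under 8 TPM in every sample. RCC1, which encodes a chromatin-bound exchange factor of the GTPase Ran, overlaps SNHG3 on the same strand. RCC1 had 220.9 and 208.7 TPM in NC against 154.4 and 195.6 TPM after knockdown (log2 fold change -0.30, adjusted p 0.282 by limma). How reads shared by SNHG3 and RCC1 were divided is not given in the sources used here, so both values are uncertain.

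SLC3A2, the amino acid transporter chain that starts within 1000 bases of SNHG1 on the opposite strand, had 172.6 and 175.2 TPM in NC against 142.6 and 165.5 TPM after knockdown. Its log2 fold change was -0.18 (adjusted p 0.468 by limma), where SNHG1 had -0.66. TRNAU1AP, which overlaps SNHG12 on the opposite strand and acts in selenocysteine incorporation, had a log2 fold change of 0.32 (adjusted p 0.242 by limma). PRSS12, opposite SNHG8, had -0.49 (adjusted p 0.260 by limma), and DIPK1B, opposite SNHG7, had 0.30 (adjusted p 0.459 by limma). Of the genes that overlap SNHG16 none had a row matched. A lncRNA gene that starts within 1000 bases of its start, ENSG00000267546, had 5.26 and 1.10 TPM in NC against 4.33 and 2.24 TPM after knockdown.

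Rows for the snoRNAs themselves were looked for by the GENCODE v44 entries inside the hosts, and 4 were matched. GENCODE held 0 such entries inside GAS5, where RefSeq held 11, and none for SNORD29, SNORD31 and SNORD50A. Rows for these snoRNAs were therefore not looked for. SNORD30, the SNHG1 snoRNA printed above, had 8.14 and 7.59 TPM in NC against 0.107 and 2.69 TPM after knockdown. SNORD99 of SNHG12 had 5.69 and 5.53 TPM in NC against 1.85 and 3.38 TPM after knockdown. The groups did not overlap in either row, and neither passed the threshold (adjusted p 0.0797 and 0.131 by limma). SNORA73A of SNHG3 had 12.04 and 23.2 TPM in NC against 13.5 and 10.3 TPM after knockdown, and SNORA73B lay between 1.33 and 2.40 TPM in all samples. Reads of the host precursor and of the mature snoRNA cannot be told apart in these rows.

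Of 23 other noncoding snoRNA hosts listed, 18 were matched and tested, and 1 was lower and 0 higher with an adjusted p under 0.05. The count called in either direction was 2 with GC correction, where 16.6% of all genes were called. It was 0 without the abundance trend, where 0% of all genes were called. This count also depended on the replicate left out. The gene that fell was DANCR, whose RNA is known to hold back differentiation of progenitor cells. It had 68.9 and 70.1 TPM in NC against 38.2 and 34.1 TPM after knockdown, with no overlap. The change of DANCR was -0.93 on the log2 scale (SE 0.142, adjusted p 0.0368 by limma), and in 12 other fits the adjusted p ran from 0.00228 to 0.114. Without NC replicate 1 or 2 it was 0.133 or 0.164 by limma. SNHG29, the most abundant of them, had 2095 and 2114 TPM in NC against 1831 and 1971 TPM after knockdown (log2 fold change -0.15, adjusted p 0.516 by limma). ZFAS1 and SNHG32 had log2 fold changes of -0.11 and 0.07 (adjusted p 0.646 and 0.871 by limma). The median log2 fold change of the 18 was -0.13. SNHG14, named after its value was seen because it had the lowest adjusted p among those with a fold change above 0, had 16.2 and 17.7 TPM in NC against 32.01 and 28.4 TPM after knockdown (log2 fold change 0.80, adjusted p 0.0555 by limma).

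Among 44 protein-coding genes that hold snoRNAs in introns, 5 were lower and 0 higher, with a median log2 fold change of -0.17. The 5 were NOP56, NCL, HSPA8, GNL3 and EIF4A1, with log2 fold changes of -1.07, -0.79, -0.83, -0.79 and -0.67 and limma adjusted p between 0.0354 and 0.0441. NCL encodes nucleolin, GNL3 nucleostemin, HSPA8 a constitutive HSP70 chaperone and EIF4A1 the helicase of translation initiation. HSPA8 had 566.7 and 571.1 TPM in NC against 359.0 and 282.7 TPM after knockdown. Of the 20 ribosomal protein genes in this list 0 passed the adjusted threshold by limma and 2 had an unadjusted p under 0.05, with a median log2 fold change of -0.13. RPS2 and RPSA, abundant genes that were not called, had log2 fold changes of -0.17 and -0.33 (adjusted p 0.717 and 0.196 by limma). The other 24 genes of the list held all 5 calls, with a median of -0.28. Over the 44 genes the count called was 13 with GC correction, where 16.6% of all genes were called. It was 0 without the abundance trend, where 0% of all genes were called. This count also depended on the replicate left out.

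**Figure D4:**
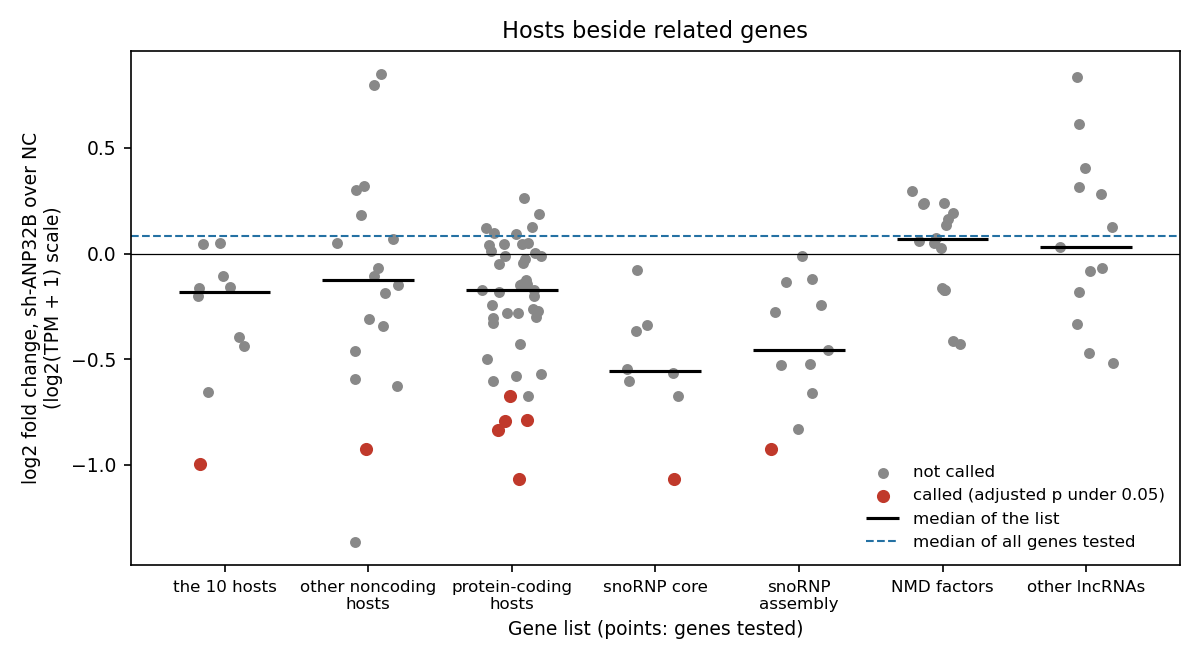
Log2 fold changes, sh-ANP32B over NC on the log2(TPM + 1) scale, of the 10 hosts beside related gene lists. Each point is a gene tested, red where the adjusted p was under 0.05, black lines are list medians and the dashed line is the median of all genes tested. The medians of the snoRNP core and assembly lists, -0.55 and -0.46, stand beside -0.18 in the hosts, 0.07 in the NMD factors and 0.03 in the other lncRNAs.

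Among the proteins that bind or assemble snoRNAs, NOP56 and NOLC1 were lower. Of 8 core proteins of the C/D and H/ACA particles and 11 assembly factors, all 19 had a log2 fold change below 0, 12 had an unadjusted p under 0.05 and 2 had an adjusted p under 0.05. Over all genes tested, 42.1% were below 0, 8.72% were lower at that unadjusted threshold and 1.18% at the adjusted one. The count called was 11 with GC correction, where 16.6% of all genes were called. It was 0 without the abundance trend, where 0% of all genes were called. This count also depended on the replicate left out. NOP56 is a C/D core protein whose gene itself hosts snoRNAs, and NOLC1 is a nucleolar chaperone of both kinds of particle. NOP56 had 152.4 and 158.2 TPM in NC against 64.6 and 83.7 TPM after knockdown (log2 fold change -1.07, SE 0.160, adjusted p 0.0354 by limma). NOLC1 had 137.1 and 136.2 TPM in NC against 71.6 and 71.6 TPM after knockdown (log2 fold change -0.92, SE 0.124, adjusted p 0.0323 by limma). FBL, the methyltransferase fibrillarin, had 285.9 and 301.1 TPM in NC against 190.1 and 206.8 TPM after knockdown. Its log2 fold change of -0.56 missed the threshold (SE 0.123, adjusted p 0.0597 by limma). NHP2 and NOP10, of the H/ACA particle, had log2 fold changes of -0.36 and -0.08 (adjusted p 0.402 and 0.785 by limma). The assembly factors RUVBL1, RUVBL2 and PIH1D1 had -0.66, -0.53 and -0.01 (adjusted p 0.0713, 0.167 and 0.983 by limma).

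Of 16 factors of nonsense-mediated decay 0 passed the adjusted threshold by limma in either direction. An unadjusted p under 0.05 was found for 2 of the 16, and for 23.8% of all genes. Their median log2 fold change was 0.07, beside 0.08 over all genes. SMG5, UPF3A and EIF4A3, the most abundant, had log2 fold changes of 0.13, 0.19 and -0.17. Of 15 lncRNAs not known as snoRNA hosts, 13 were tested, 0 passed by limma, and 3 had an unadjusted p under 0.05. Their median log2 fold change was 0.03. NORAD, which binds Pumilio proteins, had 110.2 and 106.6 TPM in NC against 175.1 and 158.2 TPM after knockdown (log2 fold change 0.61, SE 0.128, adjusted p 0.0561 by limma). CRNDE and OIP5-AS1 had 0.03 and 0.13. With GC correction, where 16.6% of all genes were called, 1 NMD factor and 3 of these lncRNAs passed. Both counts also depended on the replicate left out. Over all 2178 lncRNA genes tested, 3 were lower and 23 higher with an adjusted p under 0.05, and the median log2 fold change was 0.19, where the 10 hosts had -0.18.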

How the data were processed

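RNA-seq of 4 Kasumi-1 samples was analysed, 2 NC and 2 sh-ANP32B, with groups and replicate numbers taken from the sample titles. The submitters' processing notes name hg38 and HISAT2 (2.0.5), the aligner the authors used. The deposited values are TPM, which was identified from the values. The program that made them, its annotation and any filter are not given in the sources used here. Libraries were made with a TruSeq RNA kit. Of 18567 gene IDs, 16986 were matched in GENCODE v44. No value above 0 was identical between replicates.

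The count-based test of the study could not be run on TPM. Instead, log2(TPM + 1) was compared by limma (3.58.1 in R 4.3.3), its variance prior following abundance, for the 16817 genes that reached 1 TPM in 2 samples or more, two-sided, with Benjamini-Hochberg adjustment over all genes tested. Fold changes on this scale understate the change of low genes. An exact permutation test of 2 against 2 samples could not reach significance. Intervals used 6.67 degrees of freedom. The members and lists were chosen with earlier results of these data known. From each list every called gene and the 3 most abundant genes not called are named, with overlapping genes and genes starting within 1000 bases of a host, except for a few that are not reported here. The procedure was tested on simulated data in which 200 genes were changed. The simulated noise was independent between genes and lacked the relation to GC content seen here, so its rates may not hold for these samples. In the simulation the procedure recovered 20.4% of log2 changes of 1, 73.7% of 2 and 93% of 3, and 4.61% of its calls were false. A host that was not called may therefore still have changed. Alternatives were other scalings, filters, pseudocount, GC correction, variance model, call rule, replicate block and samples left out. Python 3.11.15 and pandas 2.3.3 were used.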

Additional observations from a re-analysis of the deposited data

How the results depend on the processing

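As reported, 1 of the 10 hosts was lower with an adjusted p under 0.05, and so were 1 of the other noncoding hosts, 5 protein-coding hosts, 2 snoRNP proteins, 0 NMD factors and 0 other lncRNAs, the last 2 in either direction. No host was higher in any fit. These counts were the same, or within 1.5 times for snoRNP proteins (3), with quantile normalization, upper-quartile scaling, mitochondrial genes left out, no filter and a pseudocount of 0.1. In the same order they were 4, 2, 13, 11, 1 and 3 with GC correction, where 16.6% of all genes were called. With genes of at least 1 TPM in every sample they were 2, 2, 7, 4, 0 and 1, with median-of-ratios scaling 2, 1, 8, 4, 0 and 0, and under the study's criterion 2, 3, 9, 10, 0 and 3. Without the abundance trend all were 0, as was the count over all genes, of which 3701 had an unadjusted p under 0.05, 3 of them hosts. Over all genes 559 were called as reported, 2557 with GC correction, 3130 under the study's criterion, 1473 with the replicate block, 1853 with the block and GC correction, 1995 with the crossed block, and 273 to 4079 with 1 replicate left out. The cause of these shifts was not tested.

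Deviations of samples with the same number were not alike across genes (Pearson -0.0925, Spearman -0.168). The replicate differences were related to GC content in opposite directions, with a rho of 0.577 in sh-ANP32B and -0.206 in NC. Whether samples with the same number were handled together is thus not settled. With the replicate block the counts were 2, 3, 5, 4, 0 and 1, and with the replicate block and GC correction 4, 4, 11, 10, 0 and 1. With the crossed block, added after the data were seen, they were 2, 2, 9, 9, 0 and 2. Across the 4 fits that each left out 1 replicate, where the lone sample is assumed to vary like the other group, the counts ranged from 0 to 6, 0 to 6, 0 to 22, 0 to 11, 0 to 3 and 0 to 4. The lowest came without an NC replicate and the highest without an sh-ANP32B replicate, whereby 20.7% to 24.3% of all genes were called.

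SNHG7 turned below 0 with GC correction and with the block and GC correction (-0.21 in each), median-of-ratios scaling (-0.0389), quantile normalization (-0.0215), upper-quartile scaling (-0.0134), without NC replicate 2 (-0.0072) and without sh-ANP32B replicate 2 (-0.18). SNHG12 did so with GC correction and with the block and GC correction (-0.11 in each), median-of-ratios scaling (-0.0429), quantile normalization (-0.0349), upper-quartile scaling (-0.0175), mitochondrial genes left out (-0.004) and without sh-ANP32B replicate 2 (-0.0493). Over the fits with 1 replicate left out they spanned -0.1757 to 0.2748 (SNHG7) and -0.0493 to 0.1399 (SNHG12). The other 8 hosts were below 0 in every fit. TPM keeps no depth, so no counting interval could be given.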
